A study of Homo sapiens with 10 samples.

Results

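The regions described here are the gaps between close neighbouring protein-coding genes of the human genome, taken from the RefSeq table of assembly GRCh38.p14 (hg38) on chromosomes 1 to 22 and X. A gap was a member when the end coordinate of 1 gene and the start coordinate of the next were at most 1 kb apart and the genes did not overlap. This gave 2216 close pairs among the 39948 ends of 19974 protein-coding genes, with 3981 genes taking part. Each pair was searched from 500 bp before to 500 bp after its gap, and a further 30034 gene ends with no other protein-coding gene within 1 kb, called lone ends, were searched over 500 bp on each side. Neither measured values nor strand were used to choose the members.

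The series is chromatin immunoprecipitation with sequencing (ChIP-seq), which maps where a protein sits on DNA, in 22RV1, a cultured human cell line of prostate cancer. No antibody is named in the labels, and the series title concerns TRIM24, a co-regulator of transcription that reads histone marks, and RB, the retinoblastoma protein that restrains E2F transcription factors. There were 6 immunoprecipitated libraries, 1 per group, all from transfected cells: control siRNA, RB1 siRNA, the empty vector EV(245-255), HA-RB(245-255) (a plasmid with an HA-tagged stretch of RB, residues 245 to 255 by its title, although the design text gives another first residue), the empty vector EV(RBN), and HA-RBN (a plasmid with the HA-tagged insert the labels name RBN). The 4 IgG libraries, mock immunoprecipitations paired with the first 4, were not analysed here. One label field places the HA-RB(245-255) library in a control group although its title names the construct, and the title was followed. With 1 library per group, a difference between conditions has no replicate check and no p-value is given. Every interval below is an exact 95% interval for counting error only.

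Each deposited peak has a summit, its highest point, and the number of sequenced fragments stacked there was recovered from the authors' fold enrichment and −log10 p-value. The lists hold 21666 to 252425 peaks, and their background, the typical number of fragments away from peaks, was 0.187 to 0.634. The first 4 lists are made of long intervals, with medians from 18202 to 83571 bp, while those of EV(RBN) and HA-RBN have medians of 450 and 521 bp. A long interval lists 1 summit only. In the first 4 lists, 92.1% to 94.8% of the close pairs without a summit were still touched by an interval, against 14.9% and 23.2% in the EV(RBN) and HA-RBN lists. The intervals of those 4 lists cover 2810697112 to 2897819525 bases, nearly the whole genome, so being touched says nothing of binding there. In the first 4 lists a missing summit can therefore be read neither as binding nor as its lack. Of 7 genes that mark luminal prostate cells, each library lists summits at the ends of 2 to 6, and KLK3 has none in any library; peak lists hold no RNA levels.

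When 2 genes start back to back and are read away from each other, the stretch between them acts as a bidirectional promoter, in which 1 nucleosome-depleted region serves both transcription starts. Such promoters are typically rich in CpG dinucleotides, poor in TATA boxes, and common among housekeeping, DNA repair and mitochondrial genes. Genes that face each other share the stretch where both transcripts end, and genes in tandem place the end of 1 beside the start of the next. Strand was known for both genes in 1599 pairs (72.2%). Of these, 814 were divergent (starts facing, median gap 175 bp), 417 were tandem (median gap 477 bp) and 368 were convergent (stops facing, median gap 357 bp), and for 617 pairs no strand was used. Over all pairs the gap had a median of 269 bp (quartiles 133 and 528 bp, range 1 to 998 bp). The pairs are not fully separate, since 141 of them share a gene end with another pair, and 232 lie on chromosome 19.

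The promoters of 6 genes are printed first as examples. The pairs of CKS1B and MCM2 were added after their values were seen. Each runs from 250 bases before to 50 bases after the start of the named gene, 5′ to 3′ along the gene's own strand, from the RefSeq promoter table of GRCh38.p14, so that the start follows the first 250 bases. Capitals mark matches, on either strand, to the motif CCAAT (letters that the factor NF-Y is known to prefer), GGGCGG (preferred by SP and KLF factors), CCGGAAG (by ETS factors), TTTCCCGC (by E2F) and TATAAA (by the TATA-binding protein). A match is a description of letters and not a measured site. CKS1B (divergent with SHC1, chr1:154974431-154974730, plus strand) encodes a regulatory subunit of cyclin-dependent kinases, and its sequence holds CCAAT at 5 places. ATM (divergent with NPAT, chr11:108222817-108223116, plus strand) encodes the kinase that signals DNA breaks. MCM2 (divergent with TPRA1, chr3:127598161-127598460, plus strand) encodes a subunit of the replicative helicase. TK1 (divergent with AFMID, chr17:78187155-78187454, minus strand) encodes the thymidine kinase of dividing cells. ESYT1 (tandem behind ZC3H10, chr12:56128017-56128316, plus strand) encodes a protein that tethers the endoplasmic reticulum to the plasma membrane. COL4A2 (divergent with COL4A1, chr13:110307034-110307333, plus strand) encodes a collagen chain of basement membranes and is shown as a shared promoter with a summit in 1 library.
CKS1B: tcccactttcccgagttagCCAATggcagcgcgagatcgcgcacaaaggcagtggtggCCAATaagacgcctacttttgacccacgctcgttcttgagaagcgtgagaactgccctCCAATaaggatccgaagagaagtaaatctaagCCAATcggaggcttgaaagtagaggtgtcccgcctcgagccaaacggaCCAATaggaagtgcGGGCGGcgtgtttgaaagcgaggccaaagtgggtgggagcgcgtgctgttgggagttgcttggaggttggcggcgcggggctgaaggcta
ATM: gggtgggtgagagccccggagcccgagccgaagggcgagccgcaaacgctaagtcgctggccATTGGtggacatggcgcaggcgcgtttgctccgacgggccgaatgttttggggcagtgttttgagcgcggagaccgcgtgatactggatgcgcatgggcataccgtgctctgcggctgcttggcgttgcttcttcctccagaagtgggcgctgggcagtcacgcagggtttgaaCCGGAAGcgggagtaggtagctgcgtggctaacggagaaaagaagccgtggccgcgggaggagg
MCM2: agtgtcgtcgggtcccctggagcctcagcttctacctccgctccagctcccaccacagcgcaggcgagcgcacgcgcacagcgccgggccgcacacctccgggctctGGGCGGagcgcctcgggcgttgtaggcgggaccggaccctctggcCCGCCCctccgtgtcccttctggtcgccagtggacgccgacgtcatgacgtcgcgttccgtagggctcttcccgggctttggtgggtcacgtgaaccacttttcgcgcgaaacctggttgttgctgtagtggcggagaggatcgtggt
TK1: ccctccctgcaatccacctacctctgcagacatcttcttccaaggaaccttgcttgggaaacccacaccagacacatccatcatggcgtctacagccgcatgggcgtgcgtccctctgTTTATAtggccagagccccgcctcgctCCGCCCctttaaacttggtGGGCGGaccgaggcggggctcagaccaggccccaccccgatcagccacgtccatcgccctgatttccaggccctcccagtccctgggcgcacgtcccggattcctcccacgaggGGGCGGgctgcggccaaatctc
ESYT1: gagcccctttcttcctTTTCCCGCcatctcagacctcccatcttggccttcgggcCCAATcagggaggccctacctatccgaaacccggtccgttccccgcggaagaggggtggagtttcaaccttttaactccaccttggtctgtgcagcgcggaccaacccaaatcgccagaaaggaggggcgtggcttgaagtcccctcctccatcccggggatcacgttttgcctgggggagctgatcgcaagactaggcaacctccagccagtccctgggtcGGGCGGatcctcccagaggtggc
COL4A2: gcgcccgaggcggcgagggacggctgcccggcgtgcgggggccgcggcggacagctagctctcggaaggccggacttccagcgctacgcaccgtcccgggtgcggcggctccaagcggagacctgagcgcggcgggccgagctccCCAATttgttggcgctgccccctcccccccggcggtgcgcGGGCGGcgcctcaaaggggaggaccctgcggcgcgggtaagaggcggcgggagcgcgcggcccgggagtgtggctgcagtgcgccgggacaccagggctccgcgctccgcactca

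In the 300 bases of CKS1B, counted from 1 at the 5′ end, the summits of all 6 libraries lay inside the printed stretch, at bases 201, 201, 49, 166, 241 and 291 in the library order given above. The first 2 fall on the last letter of the fifth CCAAT. Those of ATM lay at bases 8, 8, 1, 8, 111 and 7, upstream of its start. In MCM2 the start of TPRA1 is base 71, and the summits of 4 libraries lay at bases 210 to 215, with EV(245-255) at base 139 and EV(RBN) outside. TK1, whose printed stretch holds the start of AFMID at base 93, had 5 summits, at bases 107 to 244, and no summit in control siRNA. ESYT1 had all 6 between bases 69 and 142, after a TTTCCCGC at bases 17 to 24 and a CCAAT at bases 56 to 60. COL4A2 had 1 summit, at base 38, in HA-RBN.

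Close pairs held a summit more often than lone ends in every library. Over all 32250 windows of both kinds, a summit was listed in 12.1%, 14.7%, 19.4%, 19.3%, 24.4% and 32.0% of windows, in the library order given above. Among the 2216 close pairs the shares were 25.3%, 28.3%, 38.6%, 37.5%, 54.2% and 62.8% in the same order. Among the lone ends they were 11.2%, 13.7%, 18.0%, 17.9%, 22.2% and 29.8%, so that the close pairs were 2.07 to 2.44 times as often listed. The strongest summit of a close pair had a median of 37, 42, 16, 16, 7 and 16 fragments, against 23, 26, 11, 11, 5 and 9 at lone ends. A pair window is longer than a lone end window by the width of its gap, and it holds the ends of both genes. The part of the added gene end in the higher shares was not tested. With equal windows of 500 bp on each side of the gap middle the shares of close pairs were 24.5%, 27.0%, 36.2%, 35.3%, 48.3% and 56.7%, still above the lone ends in each library.

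Orientation separated the pairs. Divergent pairs, where both genes start, had a summit in 44.7% (interval 41.3% to 48.2%), 50.4%, 62.4%, 59.8%, 74.3% and 88.5% (86.0% to 90.6%) of windows. The 11714 lone starts had one in 23.1% (22.3% to 23.9%), 28.1%, 34.9%, 35.0%, 37.9% and 51.5% (50.6% to 52.4%). The divergent share was thus 1.71 to 1.96 times that of lone starts, and the intervals did not overlap in any library. A divergent window holds the starts of both genes, and a lone start window that of a single gene. The part of this extra start, and of the longer window, in the higher divergent share was not tested. The median number of fragments at divergent pairs was 35, 41, 16, 17, 8 and 17, against 23, 27, 12, 12, 5 and 11 at lone starts. A summit of at least 20 fragments was found in 38.7% of divergent pairs and 12.8% of lone starts in HA-RBN, and in 33.5% and 13.3% in control siRNA.

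**Figure D1:**
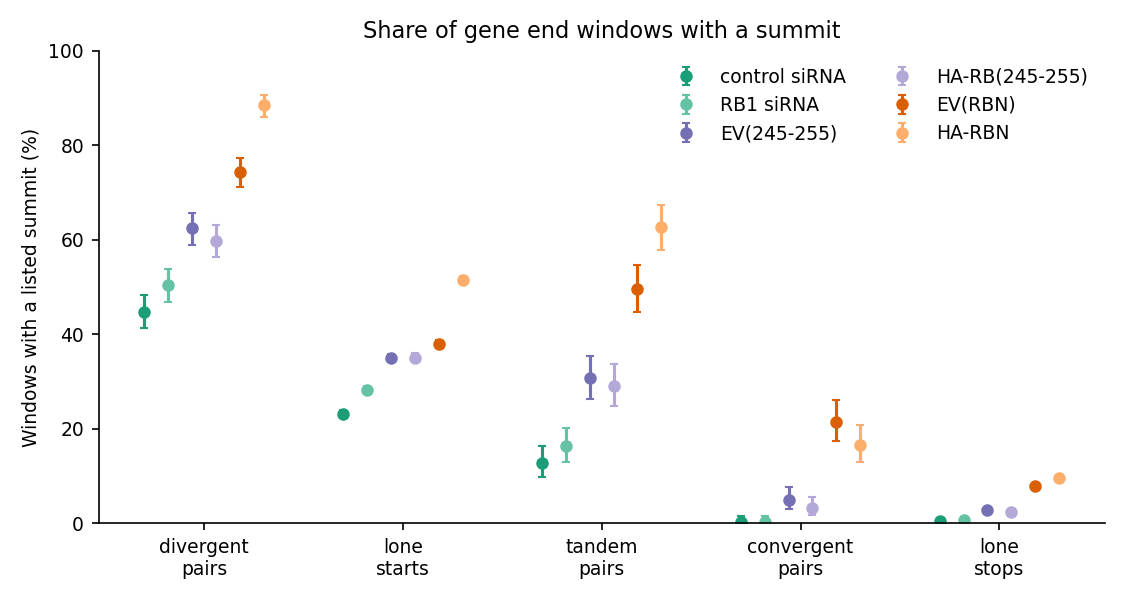
Share of windows with a listed summit (vertical axis, %) for divergent, tandem and convergent close pairs and for lone starts and stops, with 1 point per library and exact 95% intervals for counting error. Divergent pairs lie above lone starts in all 6 libraries, from 44.7% against 23.1% in control siRNA to 88.5% against 51.5% in HA-RBN.

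Tandem pairs, which hold 1 start and 1 stop, gave a different order in different lists. Their share was 12.7%, 16.3%, 30.7% and 29.0% in the first 4 libraries, below the lone starts in each, and 49.6% and 62.6% in EV(RBN) and HA-RBN, above them. Where a tandem pair had a summit, it lay nearer to the start than to the stop in 86.8%, 88.2%, 72.7%, 84.3%, 64.7% and 74.3% of windows. The 2 kinds of list also differ in interval length, and these cannot be told apart here. Convergent pairs had few summits: 1 of 368 (0.272%) with either siRNA, then 4.89%, 3.26%, 21.5% and 16.6% in the plasmid libraries. Lone stops had 0.445%, 0.656%, 2.70%, 2.28%, 7.86% and 9.48%.

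The 1 convergent pair with a summit in all 6 libraries was ELOVL3/PITX3, named here after its values were seen. ELOVL3 encodes a fatty acid elongase and PITX3 a homeodomain transcription factor. It had 42, 54, 18, 24, 9 and 22 fragments. Among convergent pairs the most fragments in HA-RBN, 58, were at H2AC20/H2AC21, a pair of histone genes with no summit in the other 5 lists. These genes are so short that the window also holds both their starts. The summit lay inside H2AC21, nearer its start than its stop.

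The width of the gap was compared next, within divergent pairs, because it sets how far apart the starts are. From gaps of up to 250 bp (569 pairs) to gaps over 250 and up to 500 bp (184 pairs), the share with a summit went from 39.5% (35.5% to 43.7%) to 57.1% (49.6% to 64.3%) in control siRNA and from 86.1% (83.0% to 88.8%) to 94.6% (90.2% to 97.4%) in HA-RBN. The median number of fragments went from 29 to 42 in control siRNA and from 14 to 22 in HA-RBN. Over 500 and up to 750 bp (38 pairs) the shares were 63.2% and 94.7%, and over 750 bp (23 pairs) 43.5% and 87.0%. In control siRNA the interval over 500 and up to 750 bp, 46.0% to 78.2%, lay above that of the narrowest class and overlapped the next, and the other intervals of the 2 wider classes overlapped both. The windows also grow with the gap, and the part of that in the higher shares was not tested. The highest medians, 80.5 fragments in control siRNA and 32.5 in HA-RBN, were in the widest class.

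The number of summits in a window could be read only in the EV(RBN) and HA-RBN lists, whose intervals are short. There, 4 of the 605 divergent pairs with a summit in EV(RBN) and 4 of 720 in HA-RBN had more than 1. Among all close pairs, 21 in EV(RBN) and 20 in HA-RBN did. For divergent neighbours beyond the limit, over 1 and up to 2 kb apart, it was 6 of 42 (14.3%) and 8 of 43 (18.6%), and over 2 and up to 5 kb 38 of 105 (36.2%) and 47 of 124 (37.9%). Up to 1 kb a divergent pair with a summit was therefore nearly always listed with a single one. Lone starts gave nearly the same, with more than 1 in 26 of 4439 (0.586%) in EV(RBN) and 33 of 6033 (0.547%) in HA-RBN. The divergent shares were 0.661% and 0.556%. A single summit thus does not show that 1 site serves both genes. More than 1 was listed more often where the starts were farther apart, in windows that are also longer. Summits closer together than an interval's length would be listed as 1.

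**Figure D2:**
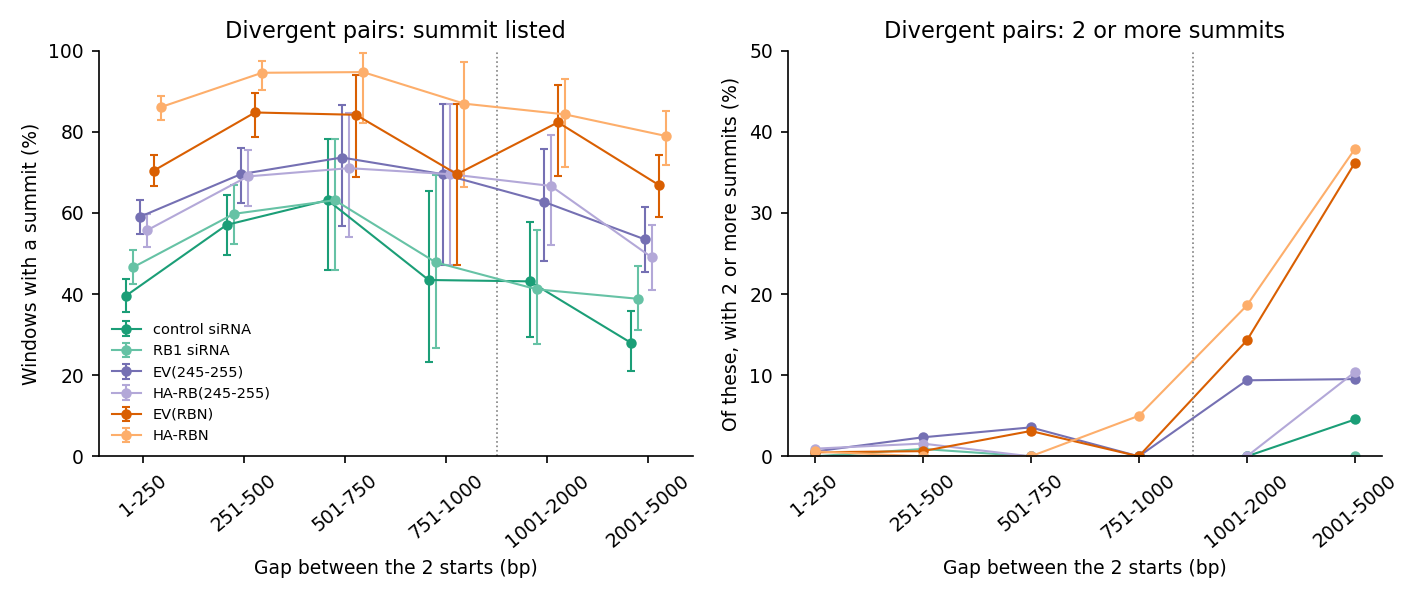
Divergent neighbours by the gap between their starts (horizontal axis, bp), with the share of windows with a summit on the left (exact 95% intervals for counting error) and, of these, the share with 2 or more summits on the right; the dotted line is the 1 kb limit, and windows are as wide as the gap plus 1000 bp. In HA-RBN the share with 2 or more summits is 18.6% at gaps over 1 and up to 2 kb and 37.9% at gaps over 2 and up to 5 kb.

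Within divergent pairs the summits of the first 4 libraries gathered near the middle of the gap. Those of EV(RBN) and HA-RBN were spread more widely, with no peak at the middle, and most lay outside the gap. The gap makes up 17.0% to 18.5% of the windows with a summit, yet it held 48.4%, 51.2%, 60.8%, 58.9%, 32.2% and 29.9% of the strongest summits. The median distance from the gap middle was 107, 97.8, 74.2, 81.5, 156 and 176 bp. In pairs with gaps over 250 bp the gap held 75.5%, 75.9%, 82.6%, 83.5%, 59.8% and 61.3% of them, with the gap at 28.9% to 29.4% of the window. Measured from the nearer start, the median summit lay 2.5 bp downstream, 3.5 bp upstream, 26 bp upstream, 22 bp upstream, 60 bp downstream and 71 bp downstream. At lone starts every library had its median upstream, by 47, 41, 62.5, 56, 74 and 8 bp. At divergent pairs the use of the nearer start means that the gap limits how far upstream a summit can lie. Lone starts have no such limit within their windows, so the medians of these classes are not directly comparable.

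**Figure D3:**
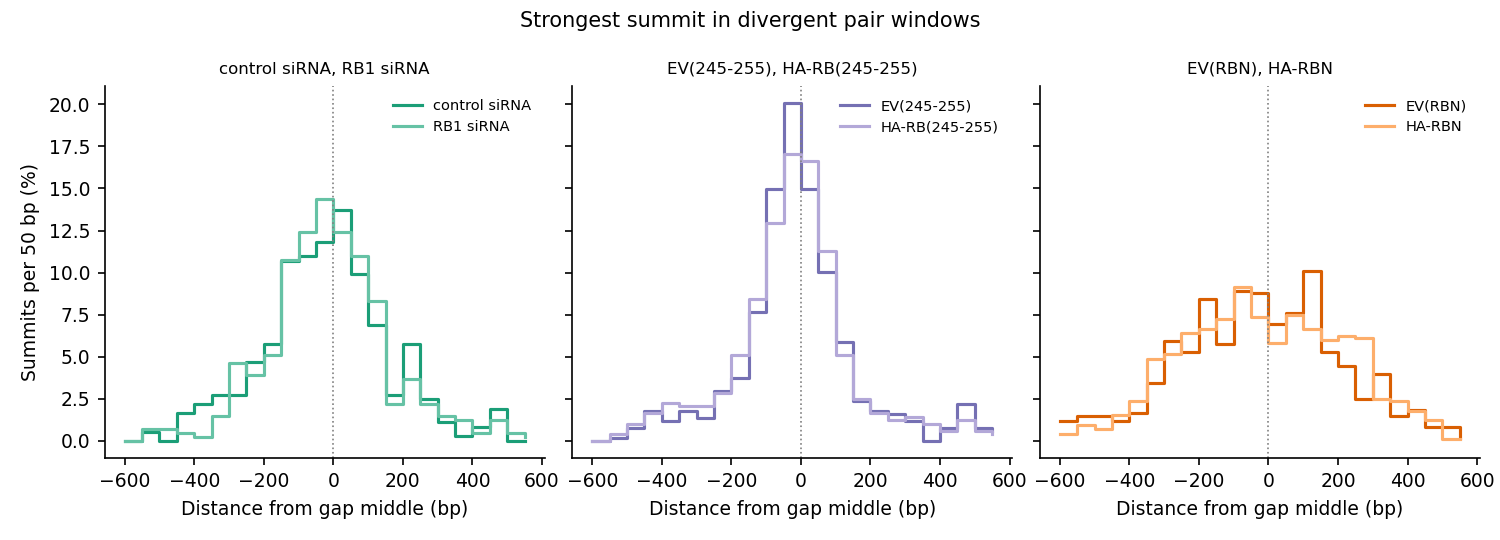
Position of the strongest summit in divergent pair windows, as distance from the gap middle (horizontal axis, bp, up to 600 bp on each side) against the percent of summits per 50 bp, 1 line per library and 1 panel per experiment. The EV(245-255) and HA-RB(245-255) lines are the narrowest, with medians of 74.2 and 81.5 bp from the middle, and the EV(RBN) and HA-RBN lines the broadest, with 156 and 176 bp.

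The same pairs recurred across libraries. A summit in all 6 was found in 260 of 2216 close pairs (11.7%), where 4.48% of all windows had one. The count rests on weak summits too: it was 48 with at least 20 fragments in each library and 0 with a −log10 q-value of at least 5. Of these pairs 177 were divergent (21.7% of divergent pairs, against 8.35% of lone starts), 17 tandem, 1 convergent and 65 without a strand. At the other end, 586 pairs (26.4%) had a summit in none, among them 52 divergent (6.39%) and 241 convergent pairs (65.5%). The 6 summits of a recurrent divergent pair spanned a median of 254 bp, against 253 bp at lone starts. The 3 divergent pairs of type IV collagen genes, looked up after their values were seen, differed in where a summit was listed. COL4A6/COL4A5 was among the 52 with no summit, COL4A1/COL4A2 had 3 fragments in HA-RBN alone, and COL4A4/COL4A3 had 35, 45, 19, 6 and 18 fragments, with no summit in EV(245-255).

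The strongest recurrent pairs were those whose lowest rank by fragments over the 6 libraries was highest. CDCA3/USP5, a divergent pair of a cell-cycle gene and a deubiquitinase gene, had 265, 304, 73, 90, 69 and 207 fragments in the library order, at summits within 80 bp of each other. CBX5/HNRNPA1, which pairs heterochromatin protein HP1α with a splicing regulator, had 306, 259, 90, 69, 71 and 150. It was the highest of the 6 in control siRNA, at 741 times the library background. Its paralogous pair HNRNPA2B1/CBX3, added after its values were seen, had 229, 242, 73, 55, 45 and 164 at a divergent gap of 697 bp.

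TMED1/C19orf38, with a cargo receptor of the early secretory pathway, had 208, 196, 84, 80, 35 and 159 fragments. ZC3H10/ESYT1, the tandem pair whose promoter is printed above, had 197, 236, 78, 96, 33 and 89, at summits within 73 bp. KCTD9/CDCA2, with a gene for a chromatin-targeting subunit of a mitotic phosphatase, had 135, 155, 101, 89, 28 and 79. All 3 stood between 320.1 and 539 times background in the siRNA libraries and the 245-255 libraries except KCTD9/CDCA2 in RB1 siRNA, at 288. FAM72B/SRGAP2C had 146, 154, 67, 72, 30 and 75, but both genes belong to recently duplicated families with near-identical copies, so its reads could come from another copy.

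**Figure D4:**
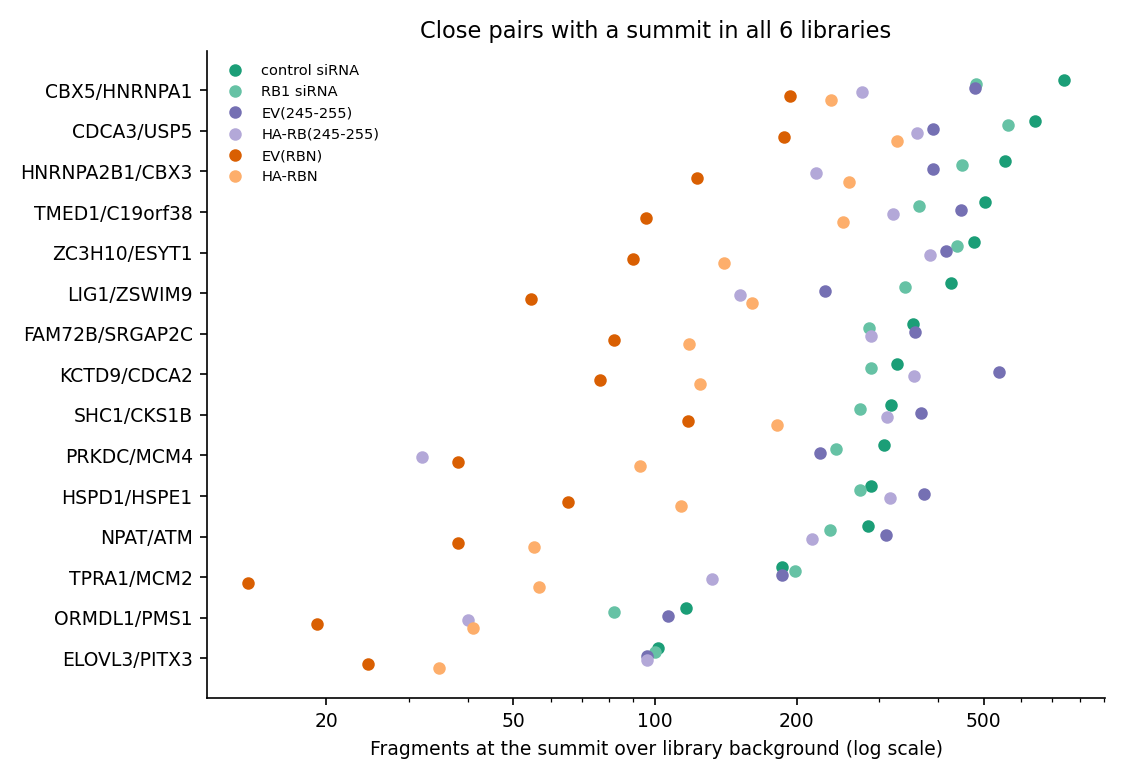
Fragments at the strongest summit divided by the library's background (horizontal axis, log scale) for 15 named close pairs with a summit in all 6 libraries, 1 point per library. Of these, SHC1/CKS1B, TPRA1/MCM2, HNRNPA2B1/CBX3, PRKDC/MCM4, ELOVL3/PITX3 and LIG1/ZSWIM9 were added after their values were seen. CBX5/HNRNPA1 reaches 741 in control siRNA, and EV(RBN) is the lowest library in 14 of the 15 pairs, all but PRKDC/MCM4.

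A list of 20 known neighbouring gene pairs, not all of them divergent, was named whatever the values; 11 were members by the rule and the genes of 7 overlap. HSPD1/HSPE1, the mitochondrial chaperonin and its co-chaperonin, had 119, 147, 70, 79, 24 and 72 fragments. NPAT/ATM, which joins the coactivator of histone genes with the DNA damage kinase, had 117, 127, 58, 54, 14 and 35. Both had a summit in every library, each at 38.2 times background or more.

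ORMDL1/PMS1, a regulator of sphingolipid synthesis beside a mismatch repair gene, had 48, 44, 20, 10, 7 and 26 fragments. TK1/AFMID had none listed in control siRNA, then 68, 29, 33, 8 and 22. PRICKLE4/TOMM6, a tandem pair with a subunit of the mitochondrial import pore, likewise lacked a summit in control siRNA and had 42, 18, 18, 16 and 32 in the others. TAP1/PSMB9, the antigen peptide transporter and an immunoproteasome subunit, had 23 in control siRNA, 6 in EV(RBN) and 10 in HA-RBN. SURF1/SURF2 had 5 in EV(RBN) alone, POLD1/SPIB 2 in EV(RBN) alone, and CDT1/APRT, a convergent pair, none. At the edge of the rule, GSDME/OSBPL3, BUD23/STX1A and LSR/USF2 have gaps of 998 bp and a summit in 1 library each, with 3 fragments in HA-RBN, 9 in EV(RBN) and 8 in EV(245-255). Just outside it, SLC26A6/CELSR3 (1002 bp) had 17, 34, 17, 20, 4 and 10 fragments, NPM3/OGA (1004 bp) 6, 7 and 7 in EV(245-255), HA-RB(245-255) and EV(RBN), and DPCD/FBXW4 (1004 bp) none.

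Groups of genes were then counted within the close pairs. Their orientation differed from that of all close pairs, of which 36.7% were divergent. Divergent pairs were 15 of 30 in DNA replication and repair, 13 of 27 histone and 25 of 53 zinc finger pairs. They were 45 of 87 mitochondrial, 14 of 32 cytosolic ribosomal and 6 of 20 proteasome pairs. The part of orientation in the shares of the groups was not tested. DNA replication and repair genes were in 30 pairs, of which 15, 16, 15, 14, 24 and 22 had a summit in the 6 libraries. The 22 in HA-RBN are 73.3% of the group, against 62.8% of all close pairs, and the 15 in control siRNA stand against 25.3%. Their median was 58 fragments in control siRNA and 26.5 in HA-RBN, against 37 and 16. Of these 30 pairs, 8 had a summit in all 6 libraries and 4 in none. The pairs named in the rest of this paragraph were picked after their values were seen, so they do not stand for the group. LIG1/ZSWIM9, with a replicative DNA ligase, had 176, 183, 43, 38, 20 and 102 fragments. PCNA/CDS2, with the sliding clamp of the replication fork, had 121, 71, 73, 12 and 45, with no summit in RB1 siRNA. PRKDC/MCM4 had 127, 131, 42, 8, 14 and 59, and SHC1/CKS1B, which is not in this group, had 131, 147, 69, 78, 43 and 115. TPRA1/MCM2 had 77, 107, 35, 33, 5 and 36. Weaker members of the group include POLE/PXMP2 with 35 fragments and COPS6/MCM7 with 12, each in HA-RBN alone.

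Histone genes were in 27 pairs, with a summit in 7, 10, 11, 8, 18 and 23 of them, which was 25.9% in control siRNA and 85.2% in HA-RBN, against 25.3% and 62.8% of all close pairs, and a median of 80 and 28 fragments. Zinc finger genes were in 53 pairs, with 12, 16, 24, 26, 33 and 36, or 22.6% in control siRNA and 67.9% in HA-RBN. Mitochondrial genes were in 87 pairs, with 22, 32, 34, 39, 58 and 65, and 8 in all 6; their 25.3% in control siRNA equals the share of all close pairs, and in HA-RBN they had 74.7%. Cytosolic ribosomal protein genes were in 32 pairs, with 8, 6, 11, 12, 21 and 24, and 1 in all 6. Proteasome genes were in 20 pairs, with 6, 6, 5, 6, 8 and 11, and none in all 6. In control siRNA these groups lay near the share of all close pairs. Olfactory receptor genes, a family best known for smell, were in 8 pairs, with none in the first 4 libraries and 4 and 1 in EV(RBN) and HA-RBN, each with a median of 3 fragments. Protocadherin genes, in 2 tandem pairs, had none, and keratin genes were in 2 pairs.

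Promoter sequence was set beside these values. Among the 13793 promoters used from the table, 1467 belong to divergent pairs and 10284 to lone starts. The observed over expected CpG ratio had a median of 0.880 in divergent pairs and 0.751 at lone starts, and GC content one of 65.0% and 62.3%. The share of windows with a summit was lowest in the lowest class of CpG ratio. Where the CpG ratio was at least 0.8, divergent pairs had a summit in 45.2% and lone starts in 37.5% in control siRNA, 63.0% and 54.8% in EV(245-255), and 89.6% and 71.1% in HA-RBN. Below 0.6 the values were 18.4% (49 pairs) and 5.87% in control siRNA and 57.1% and 26.6% in HA-RBN. Between 0.6 and 0.8 the divergent share was 50.7% in control siRNA and 93.8% in HA-RBN, above the highest class, as in 5 of the 6 libraries (not in HA-RB(245-255), 58.9% against 63.0%), so among divergent pairs the share did not rise further with the ratio. The part of composition in the difference from lone starts was not tested beyond these classes. Divergent pairs were above lone starts in each of the 3 classes of CpG ratio in all 6 libraries, with the smallest distance, 51.9% against 46.4% in RB1 siRNA, in the highest class.

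Of 10 motifs searched on both strands, none of which contains another, the largest contrasts in percentage points were in 3. By ratio to lone starts the order differs, and GGGCGG is below several of the rarer motifs. CCGGAAG was in 30.3% of divergent pair promoters, 12.2% of lone starts and 14.6% of all promoters. GGGCGG was in 72.5%, 57.3% and 58.5%. TATAAA was in 3.89%, 11.0% and 10.0%. The others were CCAAT (43.1%, 36.9% and 37.1%), the 10-letter NRF1 motif (3.41%, 1.59% and 1.84%), TTTCCCGC (4.02%, 1.94% and 2.18%), TTTGGCGC (1.91%, 0.778% and 0.921%), TGACGTCA (3.61%, 2.65% and 2.70%), the palindromic CGCG element (1.36%, 0.603% and 0.711%) and the YY1 motif (2.86%, 1.28% and 1.44%). Promoters of a divergent pair overlap where the gap is short, so a match can be counted for both genes.

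CCAAT also differed with the listing of summits among divergent pairs. It was in 54.1% (48.4% to 59.7%) of 318 promoters with a summit in all 6 libraries and in 18 of 90 (12.3% to 29.8%) with a summit in none. The matching values at lone starts were 49.0% of 911 and 34.9% of 3171. GGGCGG differed less among divergent pairs, 78.3% against 58.9%, than at lone starts, 80.4% against 32.9%. CCGGAAG, the motif most raised in divergent pairs as a class, was in 21.7% with a summit in all 6 and in 17.8% with none, both below the 30.3% of the whole class. At lone starts it differed more, 19.9% against 3.25%. The median CpG ratio was 0.879 and 0.855 in the 2 sets of divergent pair promoters.

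The 3 comparisons of conditions were made on summits that both libraries of an experiment share, placed within 500 bp of each other and with at least 20 fragments together. Values are log2 ratios of fragments minus the median over all shared gene end windows, so 0 is the typical gene end. For RB1 siRNA against control siRNA, 385 close pairs had a median of -0.0033 (interval -0.055 to 0.049). For HA-RB(245-255) against EV(245-255), 471 had 0.074 (0.0069 to 0.074), where 0.074 is the value of equal fragment numbers. For HA-RBN against EV(RBN), 653 had -0.015 (-0.054 to 0.029). Pairs more than 1 log2 unit from 0 with RB1 siRNA were 9 of 385 (2.34%; all windows 1.99%), 7 of them higher (all windows 1.23%) and 2 lower (0.756%). With HA-RB(245-255) they were 13 of 471 (2.76%; all windows 3.99%), 4 higher (1.8%) and 9 lower (2.2%). With HA-RBN they were 40 of 653 (6.13%; all windows 7.54%), 23 higher (4.38%) and 17 lower (3.17%). Intervals that exclude 0 were 25 of 385 (6.49%; all windows 5.89%), 12 of 471 (2.55%; 4.14%) and 24 of 653 (3.68%; 4.02%). These shares are near those of all gene ends, and the medians of the close pairs lay within 0.074 of them. By orientation, tandem pairs with HA-RBN stood apart, with 13.0% of 100 more than 1 log2 unit from 0, 10 higher and 3 lower. Divergent pairs there had 5.18% of 386. Tandem pairs had 2.94% of 34 with RB1 siRNA and 1.79% of 56 with HA-RB(245-255).

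**Figure D5:**
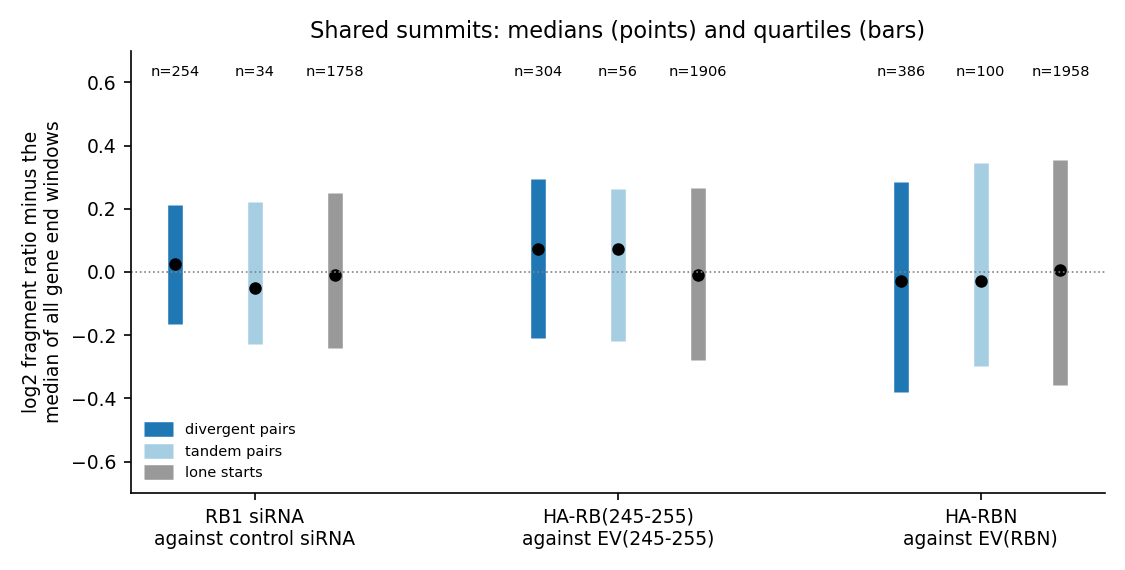
Relative log2 fragment ratio (vertical axis; 0 is the median of all shared gene end windows) in the 3 comparisons for divergent pairs, tandem pairs and lone starts; points are medians, bars run from quartile to quartile over windows, and n is the number of shared windows. All 9 medians lie between -0.051 and 0.074.

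Listing itself was compared too. Of the divergent pairs with a summit in EV(RBN), 97.0% also had one in HA-RBN, against 82.7% of lone starts. HA-RBN listed a summit in 88.5% of all divergent pairs and 51.5% of all lone starts, so the divergent overlap starts from a higher share. In the other 2 experiments the values were 73.1% and 70.5% (control siRNA also in RB1 siRNA) and 72.4% and 66.8% (EV(245-255) also in HA-RB(245-255)). The shares over all windows were 50.4% and 28.1% in RB1 siRNA and 59.8% and 35.0% in HA-RB(245-255). In these lists a missing summit cannot be read as a lack of binding.

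Single pairs at the ends of each comparison were named by their rank and are given as a description. A pair that is low in 1 library reaches the sum of 20 fragments mainly through the other, so the filter helps to set which pairs stand at the ends. With RB1 siRNA the highest were LSM5/AVL9 with 12 fragments in control siRNA and 42 in RB1 siRNA (relative log2 1.53, 0.58 to 2.60), ATP7B/ALG11 with 18 and 57 (1.39, 0.60 to 2.24), HADHA/HADHB with 14 and 38 (1.17, 0.25 to 2.166) and AKAP3/NDUFA9 with 6 and 16 (1.14, -0.29 to 2.78). LSM5 acts in messenger RNA decay and splicing, ATP7B is a copper transporter, and HADHA and HADHB are the subunits of the mitochondrial trifunctional enzyme of fatty acid oxidation. The lowest were DROSHA/C5orf22 with 18 and 8 (-1.44, -2.85 to -0.17), CIP2A/DZIP3 with 14 and 8 (-1.08, -2.54 to 0.27), WASF1/CDC40 with 29 and 18 (-0.96, -1.90 to -0.064) and MRPS28/TPD52 with 45 and 28 (-0.96, -1.69 to -0.25). DROSHA is the nuclease that starts microRNA processing. The summits compared were 407, 435 and 271 bp apart at LSM5/AVL9, ATP7B/ALG11 and HADHA/HADHB and 254 bp apart at DROSHA/C5orf22, so these pairs would not count as shared within 200 bp. The other 4 were 1 to 108 bp apart. LSM5/AVL9, ATP7B/ALG11 and HADHA/HADHB passed the filter through RB1 siRNA alone, and WASF1/CDC40 passed it through control siRNA alone. CBX5/HNRNPA1, with 306 and 259 fragments at summits 5 bp apart, was at -0.51 (-0.76 to -0.27).

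With HA-RB(245-255) the highest were NUMBL/COQ8B with 3 fragments in EV(245-255) and 25 in HA-RB(245-255) (3.13, 1.42 to 5.50), TP53BP1/MAP1A with 5 and 16 (1.75, 0.24 to 3.56), TMX3/CCDC102B with 6 and 17 (1.58, 0.17 to 3.21) and GYS1/RUVBL2 with 7 and 19 (1.51, 0.20 to 3.01). COQ8B acts in coenzyme Q synthesis, TP53BP1 in the repair of DNA breaks and GYS1 in glycogen synthesis. Among the lowest were C17orf67/DGKE with 50 and 19 (-1.32, -2.167 to -0.53), EIF2B4/SNX17 with 32 and 13 (-1.23, -2.28 to -0.26) and CDNF/HSPA14 with 20 and 9 (-1.08, -2.40 to 0.12). EIF2B4 encodes a subunit of the exchange factor of translation initiation, and CDNF/HSPA14 shares its window with CDNF/MSANTD7. The summits of NUMBL/COQ8B, TP53BP1/MAP1A, GYS1/RUVBL2 and EIF2B4/SNX17 were 282, 409, 400 and 275 bp apart, beyond 200 bp, and those of TMX3/CCDC102B, C17orf67/DGKE and CDNF/HSPA14 were 86, 2 and 62 bp apart. NUMBL/COQ8B passed the filter through HA-RB(245-255) alone, and C17orf67/DGKE, EIF2B4/SNX17 and CDNF/HSPA14 passed it through EV(245-255) alone.

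With HA-RBN the highest were CGGBP1/C3orf38 with 2 fragments in EV(RBN) and 18 in HA-RBN (1.70, -0.37 to 4.85), HMSD/SERPINB8 with 3 and 23 (1.47, -0.26 to 3.84), AIRIM/CDCA8 with 4 and 30 (1.43, -0.072 to 3.40) and C5/CNTRL with 8 and 59 (1.41, 0.34 to 2.69). CDCA8 encodes a subunit of the chromosomal passenger complex of mitosis and CNTRL a centriole protein. The lowest were ANKAR/ORMDL1 with 13 and 15 (-1.27, -2.44 to -0.076), HECTD3/UROD with 17 and 20 (-1.24, -2.25 to -0.22), and NUDT5/CDC123 and HARS1/HARS2, each with 9 and 11 (-1.18, -2.59 to 0.26). HARS1 and HARS2 encode the cytosolic and mitochondrial histidyl-tRNA synthetases. The raw fragments rose even at these lowest pairs, since the median shared window had a log2 ratio of 1.47 before centring. AIRIM/CDCA8, HMSD/SERPINB8, C5/CNTRL and, among the lowest, HECTD3/UROD passed the filter through HA-RBN alone. The summits of AIRIM/CDCA8, C5/CNTRL and NUDT5/CDC123 were 456, 255 and 456 bp apart. TMED1/C19orf38, with 35 and 159 fragments at summits 95 bp apart, was at 0.71 (0.17 to 1.28).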

How the data were processed

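Peaks were listed per library by the authors and not on pooled samples. The submitters' processing notes name MACS2 2.1.0, Bowtie 1.1.2, Trimmomatic 0.33 and bcl2fastq 2.17, and the build hg38. Their settings and the antibody were not given in the sources used here. Each peak of the deposited lists has a display score (not used), the authors' fold enrichment ratio at the summit, the authors' −log10 of the p-value and of the q-value, and the deposited offset of the summit within the peak. Peak values were used only to describe and filter peaks within a list and to solve for fragments.

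Fragment numbers were solved from fold = (pileup + 1) / (background + 1) and the Poisson p-value. The solution was tested on simulated data; at most 0.025% of summits stayed unsolved and 0.05% had several solutions, where the lowest was taken. Peaks on chromosomes 1 to 22 and X were used, and the strongest summit in a window is the one with the most fragments. A pair had no other protein-coding gene wholly inside its gap. Strand came from the RefSeq promoter table. The q-value served only as an alternative filter. Python 3.11.15, numpy 2.4.6, pandas 2.3.3, scipy 1.17.1 and matplotlib 3.10.9 were used. Shares carry Clopper-Pearson intervals and ratios exact conditional binomial intervals; fragments are not proven independent molecules, so both cover counting error only.

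Pairs were named by 4 rules: the 6 pairs with the best lowest rank of fragments over all libraries, the 4 highest and 4 lowest ratios of each comparison, a list of 20 known pairs, and the 3 pairs on each side of the 1 kb limit. Outside these rules, pairs were added after their values were seen. They are H2AC20/H2AC21, SHC1/CKS1B, TPRA1/MCM2, HNRNPA2B1/CBX3, PRKDC/MCM4, ELOVL3/PITX3, LIG1/ZSWIM9, PCNA/CDS2, POLE/PXMP2, COPS6/MCM7, COL4A6/COL4A5 and COL4A4/COL4A3. The members, gene lists and motifs were chosen with earlier results of these data known. The kinase genes that the prefix of ribosomal protein genes also catches were left out of that group. Some pairs that these rules name are not reported here.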

Additional observations from a re-analysis of the deposited data

How the results depend on the processing

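Of 66 values recomputed under another setting, 41 moved by less than their counting interval or the spread of pairs and 25 moved further. The sign changed in 2, both of them the RB1 siRNA median of -0.0033, which was 0.015 with gaps of at most 500 bp and 0.026 with divergent pairs only (a setting chosen after seeing the data). The shares of close pairs with a summit are given in library order (control siRNA, RB1 siRNA, EV(245-255), HA-RB(245-255), EV(RBN), HA-RBN). With gaps of at most 500 bp they were 28.6%, 32.2%, 42.5%, 41.2%, 56.8% and 65.6%. With windows of 500 bp around the gap middle the last 4 were 36.2%, 35.3%, 48.3% and 56.7%. With a −log10 q-value of at least 5 they were 0.361%, 0.135%, 0.135%, 0.361%, 11.3% and 35.7%. In all lists but those of EV(RBN) and HA-RBN a fragment weighs far less than 1 in the authors' values. The same q-value there needs many more fragments, so these shares do not compare strength between lists. With summits of at least 20 fragments they were 19.5%, 22.9%, 15.3%, 15.2%, 3.88% and 25.2%. The pairs with a summit in all 6 libraries, 260 in the report, were 0 with the q-value limit and 48 with the fragment limit; they were 253 with overlapping windows merged and 274 without the EV(RBN) library, both chosen after seeing the data. The median ratio of HA-RB(245-255) against EV(245-255) was 0.080 with summits shared within 200 bp. No paired analysis was possible because every group has 1 library and the labels share no second replicate number. Depth limits the single pairs: the EV(RBN) library had a median of 7 fragments at close pairs, and low counts give intervals several log2 units wide.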
